A study of Homo sapiens with 6 samples.

Results

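The genes described here are 31 genes of cholesterol and fatty acid synthesis, chosen by name from the 16623 genes of the series, and all 31 were found by their NCBI Gene ID. They cover the mevalonate and sterol branches, the fatty acid branch, and a few regulators and carriers, and they do not include every enzyme of these pathways. Expression was measured by RNA-seq in MDA-MB-231, a triple-negative breast cancer cell line grown attached in DMEM with fetal bovine serum. Cells received PCI-24781, an inhibitor of histone deacetylases (HDACs), at 100 nM or 200 nM, or its solvent DMSO, for 24 h or 48 h. Each of the 6 conditions has 1 library, so no difference given here was tested or checked in replicates. Values are FPKM, the fragments of a gene scaled by transcript length and by the fragments of the library, so levels of different genes can be set side by side. Differences are on the log2(FPKM + 1) scale. A gene was called higher or lower at a difference of 2-fold or more, provided that its FPKM reached 1 in 1 of the compared libraries, and the counts at 1.5-fold are given as well. All 31 members had an FPKM above 1 in every library. The FPKM over all members and libraries lay between 5.54 (HMGCS1 at 200 nM 24 h) and 233 (FDPS in DMSO 48 h).

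Cells make cholesterol and the branched isoprenoids from acetyl-CoA through the mevalonate pathway. Farnesyl diphosphate, its branch point, is joined to squalene, which is oxidized, closed into lanosterol and trimmed to cholesterol in the endoplasmic reticulum. Fatty acids are built from the same acetyl-CoA by ATP citrate lyase, acetyl-CoA carboxylase and fatty acid synthase, then elongated and desaturated. Transcription of most of these enzymes is driven by the sterol regulatory element binding proteins (SREBPs), encoded by SREBF1 and SREBF2. SREBPs are held in the endoplasmic reticulum by INSIG proteins when sterols are plentiful and are released when sterols are scarce, so the genes are known to move as a group with the supply of sterols and lipids in culture. HDAC inhibitors raise histone acetylation, whose acetyl groups come from the same acetyl-CoA pool.

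Low FPKM values of short genes take discrete steps, whose spacing gives an approximate depth. With full transcript lengths it came to about 18000000, 17400000 and 17400000 fragments for DMSO, 100 nM and 200 nM at 24 h, and to 17600000, 17900000 and 15700000 at 48 h. The depths at 24 h and 48 h therefore overlap. The fewest fragments behind a member's value, on its shortest listed transcript, were about 77 (HSD17B7 in DMSO 24 h). The counting error of a difference was at most 0.22 on the log2 scale, again for HSD17B7, which covers counting alone and not the variation between cultures. The cell line's mesenchymal markers were present in every library. Of that list, 6 of 6 genes were above an FPKM of 1, VIM was the most abundant, and the summed FPKM was 3324, 3079.6 and 2924 at 24 h and 3295, 3271 and 2837 at 48 h. For the luminal list the sum was between 5.60 and 7.84 over the 5 of 6 genes analysed, led by ERBB3, with ESR1 at most 0.04 and PGR at most 0.03. Markers of other cell types were low. The summed FPKM was between 1.73 and 6.91 for 4 fibroblast genes, led by COL1A1, and between 1.29 and 2.64 for 4 leukocyte genes, led by CD14. It was between 0.39 and 2.38 for 3 endothelial genes, led by PECAM1, and between 0.27 and 0.95 for 3 adipocyte genes, led by PLIN1. The defining markers CD3E and VWF were at most 0.04 and 0.03.

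A doubt about the 48 h libraries bears on everything that follows. Of the 521 genes of the whole series called higher at 200 nM 24 h, 439 were below DMSO 48 h in the library labelled 100 nM 48 h, whereas 496 were above it at 200 nM 48 h. An exchange of labels between the DMSO 48 h and 100 nM 48 h libraries and a response of the cells cannot be told apart, and the labels were used as given. The count of members with every 48 h library above every 24 h library is therefore also given without both of these. The members' medians and counts by order of dose at 48 h are also given with the labels of these libraries exchanged. Values of single genes at 48 h, and statements on which of their 48 h libraries was high or low, are as labelled unless the exchange is named.

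Most members were higher at 48 h than at 24 h, with and without the drug. The comparison of the DMSO libraries asks what another day in culture goes with when no drug is present. In DMSO, 27 of 31 members were higher at 48 h than at 24 h and 4 were lower, with a median difference of 0.72, while the median over all 11490 genes tested was 0.00. At 2-fold, 6 members were called higher, beside 2.49% of all genes tested, and 0 were called lower, beside 0.131%. They were INSIG1, SCD, MSMO1, DHCR7, HMGCS1 and MVK. At 1.5-fold the members called higher numbered 19, beside 8.49% of all genes, with 0 called lower, beside 1.94%. The amount of these mRNAs in each cell and the share of cells that made them cannot be told apart in bulk RNA.

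The treated libraries, which share no library with the DMSO comparison, also held most members at higher levels at 48 h. At 100 nM the median of 48 h against 24 h was 0.62, beside -0.04 for all genes, with 28 members higher and 3 lower. LSS, SREBF1, INSIG1, FASN, SCD and FADS2, 6 of 31, were called higher at 2-fold, beside 0.961% of all genes, and 0 were called lower, beside 0.857%. At 1.5-fold the numbers were 17 higher, beside 4.93%, and 0 lower, beside 4.98%. With the labels of the doubted libraries exchanged, the medians were 0.57 in DMSO and 0.72 at 100 nM, beside -0.01 and -0.01 for all genes. The members called higher at 2-fold then numbered 5 and 9. The share of all genes called is not available for the exchanged comparisons, so these counts are not set beside those as labelled. At 200 nM the median was 0.63, beside 0.00 for all genes, again with 28 members higher and 3 lower. HMGCS1, IDI1, MSMO1, INSIG1, STARD4 and SCD, 6 of 31, were called higher, beside 0.74% of all genes, and 0 lower, beside 0.179%. At 1.5-fold the numbers at this dose were 16 higher, beside 3.86%, and 0 lower, beside 2.06%. The comparison at 200 nM uses neither of the libraries in doubt. INSIG1 and SCD are the members called higher at 2-fold in DMSO and at both doses. Ranked by this difference, INSIG1 was at place 34 of 11490 genes in DMSO, 9 of 11556 at 100 nM and 7 of 11760 at 200 nM. SCD was at places 36, 7 and 16 in the same order.

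**Figure D1:**
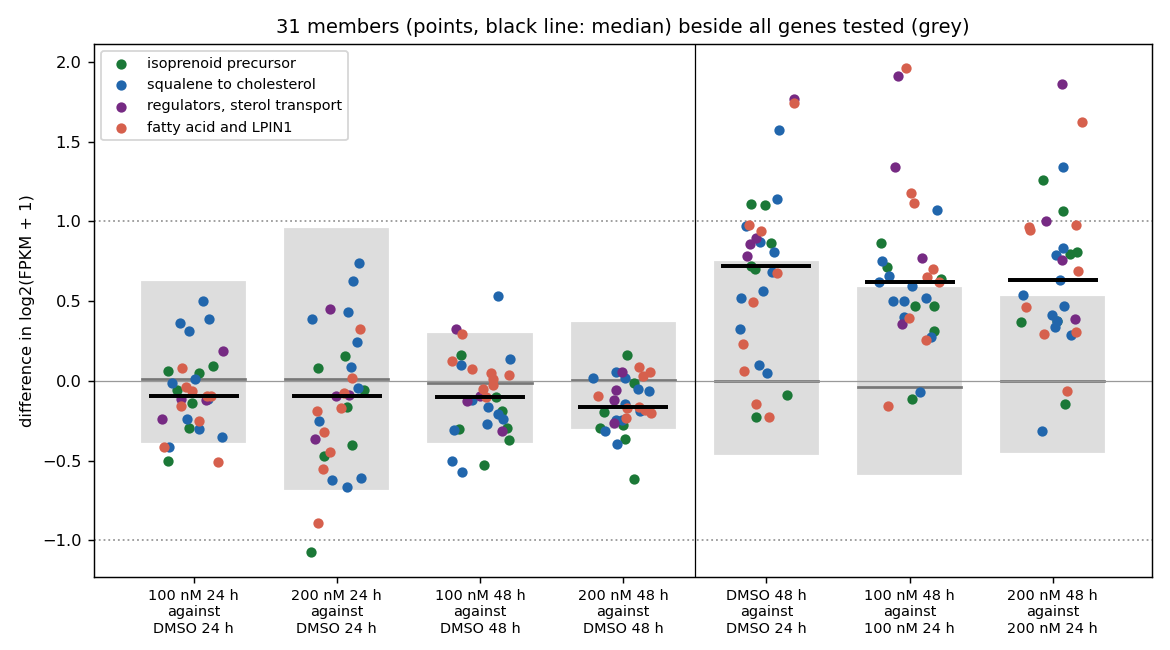
Difference in log2(FPKM + 1) of each of the 31 members (points, coloured by role) in 4 comparisons with DMSO of the same time (left) and in the comparisons of 48 h with 24 h (right). Black lines are the members' medians, grey boxes span the central 90% of all genes tested with their median as a grey line, and dotted lines mark 2-fold. The members' medians are -0.10, -0.09, -0.10 and -0.17 on the left and 0.72, 0.62 and 0.63 on the right.

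Counting was also done by library, a comparison chosen after the values were seen. In 22 of 31 members every 48 h library was above every 24 h library, beside 11.3% of the 11893 genes whose FPKM reached 1 somewhere. The reverse held for 1 member, the phosphomevalonate kinase gene PMVK, beside 13.2% of all genes. The 22 comprise 5 of 7 isoprenoid precursor genes, 8 of 11 genes from squalene to cholesterol, 4 of 4 regulators and carriers, and 5 of 9 fatty acid genes. Leaving out each library in turn gave between 22 and 25 members, while the share of all genes was between 13.1% (without DMSO 48 h) and 19.3% (without 200 nM 24 h). An exchange of labels within 48 h leaves these counts as they are. Without DMSO 48 h and 100 nM 48 h together, 23 of 31 members had their 200 nM 48 h value above every 24 h library, beside 25% of all genes. Apart from PMVK, the times overlapped in ACAT2, TM7SF2, EBP, SC5D, ACLY, ACSS2, ACACA and ELOVL6. Everything that the 3 libraries of 1 time have in common, harvest and handling included, cannot be told apart from time. The summed levels of 3 marker lists of other cell types were also higher at 48 h than at 24 h in DMSO and at both doses, at low levels and not in every gene. The summed FPKM of DMSO, 100 nM and 200 nM for the 3 adipocyte genes was 0.27, 0.52 and 0.43 at 24 h and 0.69, 0.68 and 0.95 at 48 h. For the 3 endothelial genes, led by PECAM1, it was 0.39, 0.68 and 1.28 and then 1.56, 1.1 and 2.38. For the 4 leukocyte genes, led by CD14, it was 1.29, 1.55 and 2.40 and then 1.94, 2.41 and 2.64. The most abundant gene of each list was higher at 48 h at every dose. In the order DMSO, 100 nM and 200 nM, PLIN1 was at 0.15, 0.18 and 0.19 at 24 h and at 0.37, 0.5 and 0.59 at 48 h, PECAM1 at 0.38, 0.64 and 1.25 and then 1.52, 1.07 and 2.33, and CD14 at 0.28, 0.62 and 1.12 and then 1.03, 1.42 and 1.47. Others of the same lists were not, or not at every dose. ADIPOQ was at 0.12, 0.28 and 0.19 and then 0.28, 0.18 and 0.28, and PTPRC, the general leukocyte marker, at 0.81, 0.79 and 1.01 and then 0.76, 0.77 and 1.0. LEP was at most 0.08, VWF and CDH5 at most 0.03, and CD3E at most 0.04. The part of these lists in the result was not tested.

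**Figure D2:**
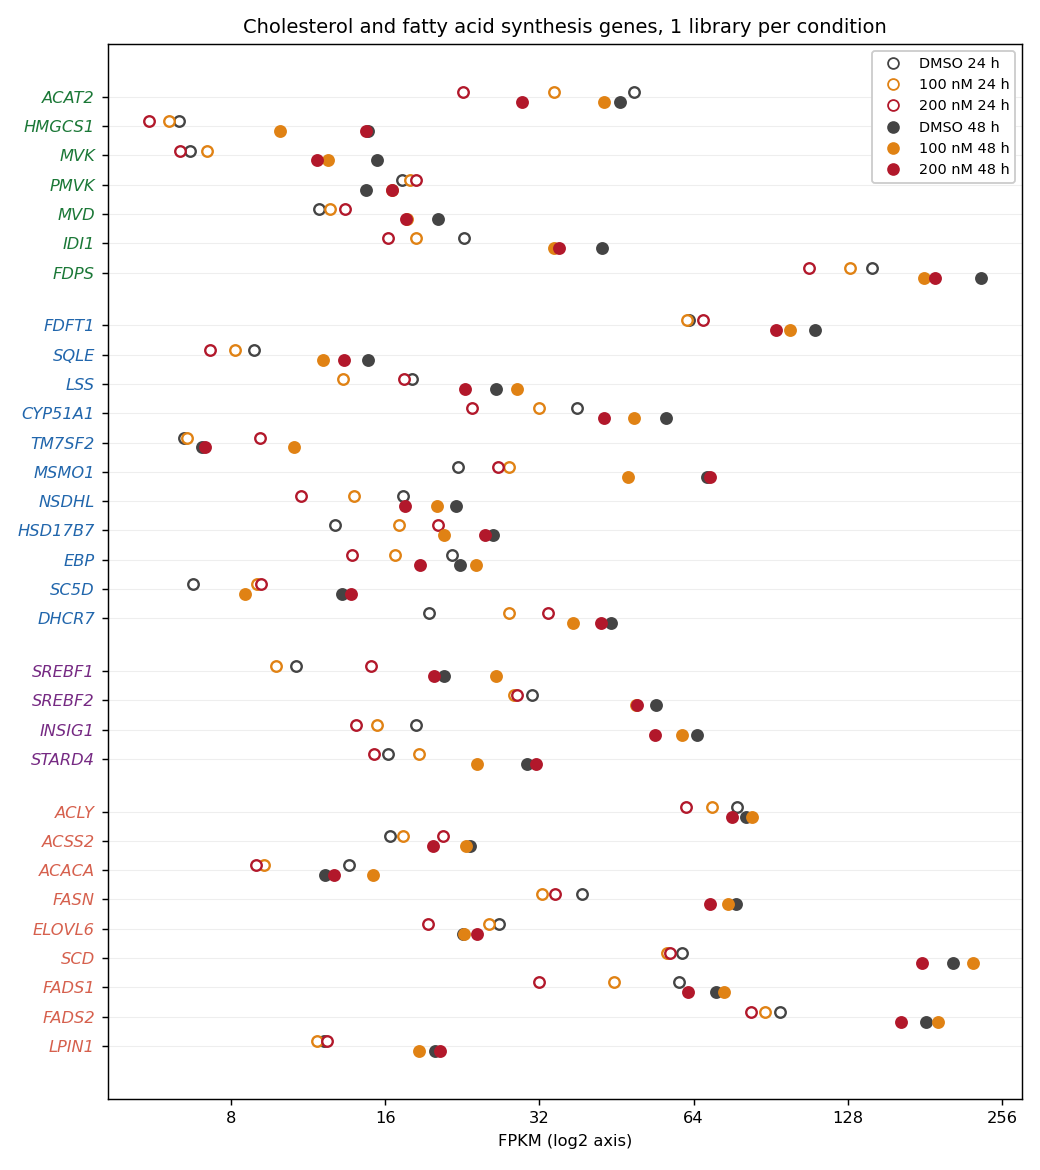
FPKM of each member (rows, coloured by role) in each library on a log2 axis, with open circles for 24 h and filled circles for 48 h. The filled circles lie to the right of all open circles in 22 of 31 rows, with wide gaps for SCD (at most 60.7 at 24 h and at least 179 at 48 h) and INSIG1 (at most 18.4 and at least 53.8).

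Promoter sequence is shown for the members with the largest range over the 6 libraries, INSIG1, SCD and MSMO1, because their levels were higher together at 48 h. The sequences are from RefSeq (GRCh38.p14), run 5′ to 3′ from 250 bases before to 50 bases after the gene's start, and lie at chr7:155297628-155297927, plus strand, at chr10:100346983-100347282, plus strand and at chr4:165327419-165327718, plus strand. Capitals mark the motifs found on either strand: the NF-Y box CCAAT, the Sp1 box GGGCGG and the E-box CACGTG. The other motif searched, the sterol regulatory element TCACNCCAC, has no match in these windows.
INSIG1: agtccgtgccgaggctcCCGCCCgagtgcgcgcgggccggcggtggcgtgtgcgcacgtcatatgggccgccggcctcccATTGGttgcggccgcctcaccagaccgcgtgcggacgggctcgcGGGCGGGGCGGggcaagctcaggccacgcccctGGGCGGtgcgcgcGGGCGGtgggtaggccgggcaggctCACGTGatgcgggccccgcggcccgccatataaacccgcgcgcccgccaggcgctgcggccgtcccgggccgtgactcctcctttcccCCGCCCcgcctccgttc
SCD: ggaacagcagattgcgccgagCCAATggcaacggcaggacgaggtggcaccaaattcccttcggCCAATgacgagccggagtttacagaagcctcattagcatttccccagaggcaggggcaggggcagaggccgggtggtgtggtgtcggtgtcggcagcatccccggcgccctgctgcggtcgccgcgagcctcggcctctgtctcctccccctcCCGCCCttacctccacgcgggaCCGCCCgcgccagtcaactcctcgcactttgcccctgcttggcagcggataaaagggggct
MSMO1: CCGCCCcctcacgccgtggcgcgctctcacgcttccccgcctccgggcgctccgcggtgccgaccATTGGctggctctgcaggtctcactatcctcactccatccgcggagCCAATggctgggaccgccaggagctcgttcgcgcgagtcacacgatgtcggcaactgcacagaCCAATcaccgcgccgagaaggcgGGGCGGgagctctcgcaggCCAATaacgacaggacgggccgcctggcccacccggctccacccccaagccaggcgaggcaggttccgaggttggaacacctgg
The INSIG1 window holds 1 NF-Y box, 6 Sp1 boxes (a pair of them overlapping by 1 base) and 1 E-box. SCD has 2 NF-Y boxes and 2 Sp1 boxes, and MSMO1 has 4 NF-Y boxes and 2 Sp1 boxes. Of the 31 members, 27 had an entry, with 39 promoters in all, and ACAT2, FASN, FDFT1 and SQLE had none. NF-Y boxes were in 64.1% of the 39 promoters and in 34.6% of the 35116 promoters of the table, which include those of noncoding genes. Sp1 boxes were in 87.2% and 45.0%, E-boxes in 10.3% and 7.26%, and the sterol regulatory element in 2.56% (1 promoter, of SREBF2) and 1.13%. These are matches of letters in a window and not sites shown to be bound.

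Among the regulators and sterol carriers, all 4 genes were higher at 48 h in DMSO and at both doses, with medians of 0.88, 1.06 and 0.88. INSIG1 (NCBI Gene ID 3638, chr7:155089486-155101945 on the plus strand of hg19, the build of all gene coordinates given here), which retains SREBPs in the endoplasmic reticulum, had an FPKM of 18.4 in DMSO, 15.4 at 100 nM and 14.1 at 200 nM at 24 h, and 64.9, 60.8 and 53.8 at 48 h. Its 48 h libraries were above its 24 h libraries by ratios of 3.53 in DMSO, 3.94 at 100 nM and 3.83 at 200 nM. The INSIG1 level was lower with dose at 24 h and, as labelled, at 48 h. It differed from DMSO at 24 h by -0.24 (100 nM) and -0.36 (200 nM) and at 48 h by -0.09 and -0.27. SREBF2, whose product favours the sterol genes, kept to a narrow band within each time, from 28.5 to 30.9 at 24 h and from 49.4 to 53.95 at 48 h, with ratios of 1.74 in DMSO, 1.73 at 100 nM and 1.72 at 200 nM. SREBF1, whose products favour the fatty acid genes, had an FPKM of 10.7 in DMSO, 9.80 at 100 nM and 15.01 at 200 nM at 24 h, and 20.8, 26.3 and 19.95 at 48 h. Its highest value was at 100 nM 48 h and its lowest at 100 nM 24 h, so the time ratio was 2.68 at that dose and 1.33 at 200 nM. STARD4, a soluble sterol carrier, had an FPKM of 16.2 in DMSO, 18.6 at 100 nM and 15.2 at 200 nM at 24 h, and 30.2, 24.1 and 31.5 at 48 h. STARD4 had its lowest 48 h value at 100 nM, and each of the 4 genes had its lowest 48 h library above its highest 24 h library.

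The isoprenoid precursor genes, which lead from acetyl-CoA to farnesyl diphosphate, had medians of 0.72 in DMSO, 0.47 at 100 nM and 0.80 at 200 nM for 48 h against 24 h. If the doubted libraries are exchanged, the DMSO and 100 nM medians of these genes were 0.53 and 0.84. HMGCS1 (NCBI Gene ID 3157, chr5:43287572-43313614 on the minus strand), the cytosolic HMG-CoA synthase, had an FPKM of 6.34 in DMSO, 6.05 at 100 nM and 5.54 at 200 nM at 24 h, and 14.8, 9.99 and 14.7 at 48 h. Its 100 nM 48 h library lay between the 24 h libraries and the other 48 h libraries. The mevalonate kinase gene MVK had an FPKM of 6.66 in DMSO, 7.18 at 100 nM and 6.37 at 200 nM at 24 h, and 15.4, 12.4 and 11.8 at 48 h. All of its 48 h values were above the 24 h values, with the library labelled DMSO 48 h highest. For IDI1, the isopentenyl diphosphate isomerase, the values were 22.8 in DMSO, 18.4 at 100 nM and 16.2 at 200 nM at 24 h, and 42.4, 34.2 and 34.9 at 48 h. FDPS, which makes farnesyl diphosphate and was the most abundant of these genes, had an FPKM of 143 in DMSO, 129 at 100 nM and 108 at 200 nM at 24 h, and 233, 179.9 and 189 at 48 h. In IDI1 and FDPS the library labelled DMSO was the highest within each time, and at 48 h this turns with the exchange of labels. These 4 genes had no overlap between the times, and neither had the diphosphomevalonate decarboxylase gene MVD (from 11.9 to 13.3 at 24 h and from 17.6 to 20.3 at 48 h). PMVK was the exception in direction, from 17.3 to 18.4 at 24 h and from 14.7 to 16.5 at 48 h, a range of 0.31 on the log2 scale over all libraries.

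ACAT2, the cytosolic acetyl-CoA acetyltransferase that feeds HMG-CoA synthase, was lowest at 200 nM within each time. ACAT2 (NCBI Gene ID 39, chr6:160182989-160200144 on the plus strand) had an FPKM of 48.96 in DMSO, 34.2 at 100 nM and 22.7 at 200 nM at 24 h, and 45.9, 42.7 and 29.7 at 48 h. Its level was lower with each dose at 24 h and, as labelled, at 48 h, and the times overlapped. It differed from DMSO at 24 h by -0.50 (100 nM) and -1.08 (200 nM) and at 48 h by -0.10 and -0.61, and between the DMSO libraries the difference was -0.09. With the labels of DMSO 48 h and 100 nM 48 h exchanged, the 48 h differences of ACAT2 are 0.10 at 100 nM and -0.51 at 200 nM. In the coordinates of the files ACAT2 overlaps TCP1 on the opposite strand, and the sources used here do not say whether counting used the strand. TCP1 had an FPKM of 118 in DMSO, 116 at 100 nM and 116 at 200 nM at 24 h, and 89.8, 83.1 and 90.8 at 48 h, with differences from DMSO of -0.02, -0.02, -0.11 and 0.02 in the same order. TCP1 was thus nearly level across the doses within a time, where ACAT2 was not, and was lower at 48 h.

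From squalene to cholesterol, all 11 genes were higher in DMSO at 48 h than at 24 h, with a median of 0.68, and 10 of 11 were higher at each dose, with medians of 0.52 at 100 nM and 0.47 at 200 nM. MSMO1 (NCBI Gene ID 6307, chr4:166248818-166264316 on the plus strand), a methylsterol oxidase, had an FPKM of 22.2 in DMSO, 27.9 at 100 nM and 26.6 at 200 nM at 24 h, and 68.1, 47.7 and 68.8 at 48 h. In DMSO and at 200 nM its 48 h values nearly coincided, while the 100 nM 48 h library was lower. DHCR7 (NCBI Gene ID 1717, chr11:71145457-71159477 on the minus strand), the dehydrocholesterol reductase of a final step, had an FPKM of 19.5 in DMSO, 27.96 at 100 nM and 33.2 at 200 nM at 24 h, and 44.2, 37.2 and 42.3 at 48 h. HSD17B7, a ketosteroid reductase of sterol demethylation, had an FPKM of 12.8 in DMSO, 17.03 at 100 nM and 20.3 at 200 nM at 24 h, and 25.99, 20.8 and 25.1 at 48 h. In DHCR7 and HSD17B7 the 24 h values were in the order of dose with 200 nM highest, and the 48 h values were lowest at 100 nM. HSD17B7, IDI1, FDPS, CYP51A1 and SCD have named pseudogenes whose reads could be counted with theirs, so their levels are uncertain in that respect.

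CYP51A1, the lanosterol demethylase, had the opposite order at 24 h. It had an FPKM of 37.96 in DMSO, 32.01 at 100 nM and 23.6 at 200 nM at 24 h, and 56.6, 48.9 and 42.9 at 48 h. NSDHL, the sterol dehydrogenase of the demethylation complex, had an FPKM of 17.4 in DMSO, 13.9 at 100 nM and 10.9 at 200 nM at 24 h, and 21.96, 20.2 and 17.5 at 48 h, and was lower with each dose at 24 h and, as labelled, at 48 h. SQLE, the squalene epoxidase and a control point of the pathway, had an FPKM of 8.88 in DMSO, 8.14 at 100 nM and 7.29 at 200 nM at 24 h, and 14.8, 12.1 and 13.3 at 48 h. Every 48 h value of SQLE was above its 24 h values. FDFT1, the squalene synthase, lay between 62.03 and 66.7 at 24 h and between 92.9 and 110.3 at 48 h. LSS, the lanosterol synthase, lay between 13.3 and 18.04 at 24 h and between 22.96 and 28.99 at 48 h. In the other 3 genes the times overlapped. EBP, the sterol isomerase, was between 13.8 and 24.1 over all libraries. SC5D, the sterol desaturase, was between 6.76 and 13.8, lowest in DMSO 24 h and highest at 200 nM 48 h. TM7SF2, a sterol reductase whose annotated span overlaps VPS51 on the same strand, was between 6.48 and 10.6, with its highest value at 100 nM 48 h.

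In the fatty acid branch SCD, FASN and FADS2 differed most with time in DMSO and at both doses. SCD (NCBI Gene ID 6319, chr10:102106772-102124588 on the plus strand), the stearoyl-CoA desaturase that makes monounsaturated fatty acids, had an FPKM of 60.7 in DMSO, 56.9 at 100 nM and 57.5 at 200 nM at 24 h, and 206, 224 and 179 at 48 h. The 3 libraries of 24 h lay within 56.9 to 60.7, and the 48 h ratios were 3.39 in DMSO, 3.94 at 100 nM and 3.11 at 200 nM. FASN, the fatty acid synthase, had an FPKM of 38.8 in DMSO, 32.4 at 100 nM and 34.4 at 200 nM at 24 h, and 77.5, 74.7 and 68.8 at 48 h, with differences of 0.98 in DMSO, 1.18 at 100 nM and 0.98 at 200 nM between the times. FADS1 (NCBI Gene ID 3992, chr11:61567097-61584529 on the minus strand) and FADS2 (NCBI Gene ID 9415, chr11:61583675-61634826 on the plus strand) are neighbouring desaturases of polyunsaturated fatty acids whose annotated spans overlap on opposite strands, so reads in the overlap cannot be assigned with certainty. FADS2 had an FPKM of 94.3 in DMSO, 88.1 at 100 nM and 82.7 at 200 nM at 24 h, and 182, 192 and 162 at 48 h. FADS1 had an FPKM of 59.99 in DMSO, 44.8 at 100 nM and 31.9 at 200 nM at 24 h, and 70.8, 73.3 and 62.3 at 48 h, with a spread at 24 h that FADS2 did not have. For LPIN1, a phosphatidate phosphatase, the values lay between 11.8 and 12.3 at 24 h and between 18.7 and 20.5 at 48 h.

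The supply enzymes and the elongase overlapped between the times. ACLY, the ATP citrate lyase, was between 61.9 and 83.4 over the 6 libraries. ACSS2, which makes acetyl-CoA from acetate, was between 16.3 and 23.5. ACACA, the acetyl-CoA carboxylase that commits carbon to fatty acids, was between 8.96 and 15.2, lowest at 200 nM 24 h and highest at 100 nM 48 h. The elongase gene ELOVL6 was between 19.4 and 26.7, lowest at 200 nM 24 h. In DMSO, ACACA and ELOVL6 were lower at 48 h, with differences of -0.15 and -0.23, and ACLY differed by 0.06. At 100 nM and 200 nM these differences were 0.65 and 0.46 for ACACA, -0.15 and 0.30 for ELOVL6, and 0.26 and 0.29 for ACLY. The 9 fatty acid genes had medians of 0.50 in DMSO, 0.65 at 100 nM and 0.69 at 200 nM.

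The comparisons of PCI-24781 with DMSO of the same time ask which genes go with HDAC inhibition. At 24 h the members' medians were slightly below 0. No member passed either threshold at 100 nM, while at 200 nM some did, as counted below. Summed marker lists of 3 other cell types were higher with each dose at 24 h. For DMSO, 100 nM and 200 nM the summed FPKM was 2.06, 3.15 and 6.91 for the 4 fibroblast genes, most of it COL1A1 (1.66, 2.99 and 6.68). COL3A1 of the same list went the other way (0.33, 0.16 and 0.15), and DCN was at most 0.07 and LUM at most 0.05. The endothelial and leukocyte sums given above were also higher with each dose at 24 h, and the part of these lists in the differences was not tested. At 48 h, as labelled, the fibroblast sum was 2.67, 1.73 and 5.09. At 100 nM, 10 members were higher and 21 lower than in DMSO, with a median of -0.10, beside 0.01 for all genes. No member was called, 0 higher beside 1.35% of all genes and 0 lower beside 0.131%. At 1.5-fold, too, 0 members were higher, beside 5.54%, and 0 lower, beside 1.25%. At 200 nM, 11 were higher and 20 lower, with a median of -0.09, beside 0.01. At 2-fold, 0 were called higher, beside 4.47% of all genes, and 1 was called lower, ACAT2, beside 1.48%. At 1.5-fold, 2 were higher, beside 12.5%, and 5 were lower, beside 7.58%. DHCR7 (0.74) and HSD17B7 (0.63) were the 2 higher genes. The 5 lower genes were ACAT2 (-1.08), FADS1 (-0.89), CYP51A1 (-0.66), NSDHL (-0.62) and EBP (-0.61). These 7 genes lie in the same pathways, and CYP51A1, NSDHL, HSD17B7 and EBP all act between lanosterol and the step of DHCR7. At 100 nM they differed in the same direction by less, by 0.50 and 0.39 for the higher genes and by -0.50, -0.41, -0.24, -0.30 and -0.35 for the lower, and both doses share the DMSO 24 h library.

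At 48 h only ACAT2 passed 1.5-fold at either dose. At 100 nM, 11 members were higher and 20 lower, with a median of -0.10, beside -0.01, and none was called. The counts were 0 higher beside 0.0608% of all genes and 0 lower beside 0.408%, and at 1.5-fold 0 higher beside 0.504% and 0 lower beside 1.75%. SC5D (-0.57), HMGCS1 (-0.52), MSMO1 (-0.50) and TM7SF2 (0.53) differed most. At 200 nM, 8 were higher and 23 lower, with a median of -0.17, beside 0.01. At 2-fold, 0 members were called higher, beside 0.206%, and 0 lower, beside 0.06%. At 1.5-fold, 0 were higher, beside 1.53%, and ACAT2 was the 1 gene lower (-0.61), beside 0.463%. CYP51A1 (-0.39), MVK (-0.36) and NSDHL (-0.31) followed. Against the mean of both DMSO libraries in place of the one of the same time, the 24 h medians were -0.46 (100 nM) and -0.52 (200 nM) and the 48 h medians 0.18 and 0.17, because that reference lies between the times. With the labels of DMSO 48 h and 100 nM 48 h exchanged, the 48 h medians were 0.10 at 100 nM and -0.08 at 200 nM. No member then passed 1.5-fold downward, and SC5D (0.63 at 200 nM) passed it upward. Of all 11694 genes tested in that exchanged comparison at 200 nM, 652 passed 1.5-fold upward and 277 downward. By role and as labelled, the isoprenoid precursor genes had the lowest medians at 48 h, -0.30 at 100 nM and -0.27 at 200 nM. With the exchange their medians were 0.30 and 0.00, and the fatty acid genes had the lowest, -0.04 and -0.21, so this order of the roles rests on the labels.

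The order of the doses was read within each time, in counts chosen after the values were seen. At 24 h, 14 of 31 members went downward from DMSO through 100 nM to 200 nM, beside 30.4% of the 11893 genes, and 7 went upward, beside 32.3%. The 7 were PMVK, MVD, TM7SF2, HSD17B7, SC5D, DHCR7 and ACSS2. At 48 h, 9 members went downward, beside 11.3%, and 2 went upward, PMVK and ELOVL6, beside 10.3%. With the labels of DMSO 48 h and 100 nM 48 h exchanged, 7 members went downward at 48 h, beside 25.3%, and 4 went upward, MSMO1, SC5D, STARD4 and LPIN1, beside 29.8%. ACAT2, CYP51A1, NSDHL and INSIG1 went downward at both times as labelled, and with the exchange none of these 4 did so at 48 h, where 200 nM was still their lowest library. At 200 nM, 17 of 31 members were below DMSO at 24 h and again at 48 h, beside 33.6% of all genes, and 5 were above it at both times, beside 36.7%. The 5 were PMVK, TM7SF2, MSMO1, SC5D and LPIN1. With the exchange these counts were 13, beside 32% of all genes, and 6, beside 36.2%. The share going downward at 24 h was thus above that of all genes, and the share going upward below it. The direct steps from 100 nM to 200 nM were small, with medians of -0.07 at 24 h and -0.08 at 48 h, beside 0.00 and 0.01 for all genes. SC5D at 48 h, with 0.63, was the only member past 1.5-fold in either step as labelled. Of all genes tested, 357 of 11651 were past it upward and 249 downward at 24 h. At 48 h, 652 of 11694 were past it upward and 277 downward. With the exchange the median at 48 h was -0.17, SC5D differed by 0.06, and ACAT2 (-0.61) was the only member past 1.5-fold at 48 h. Of all genes, 1.53% were then past 1.5-fold upward and 0.463% downward.

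**Figure D3:**
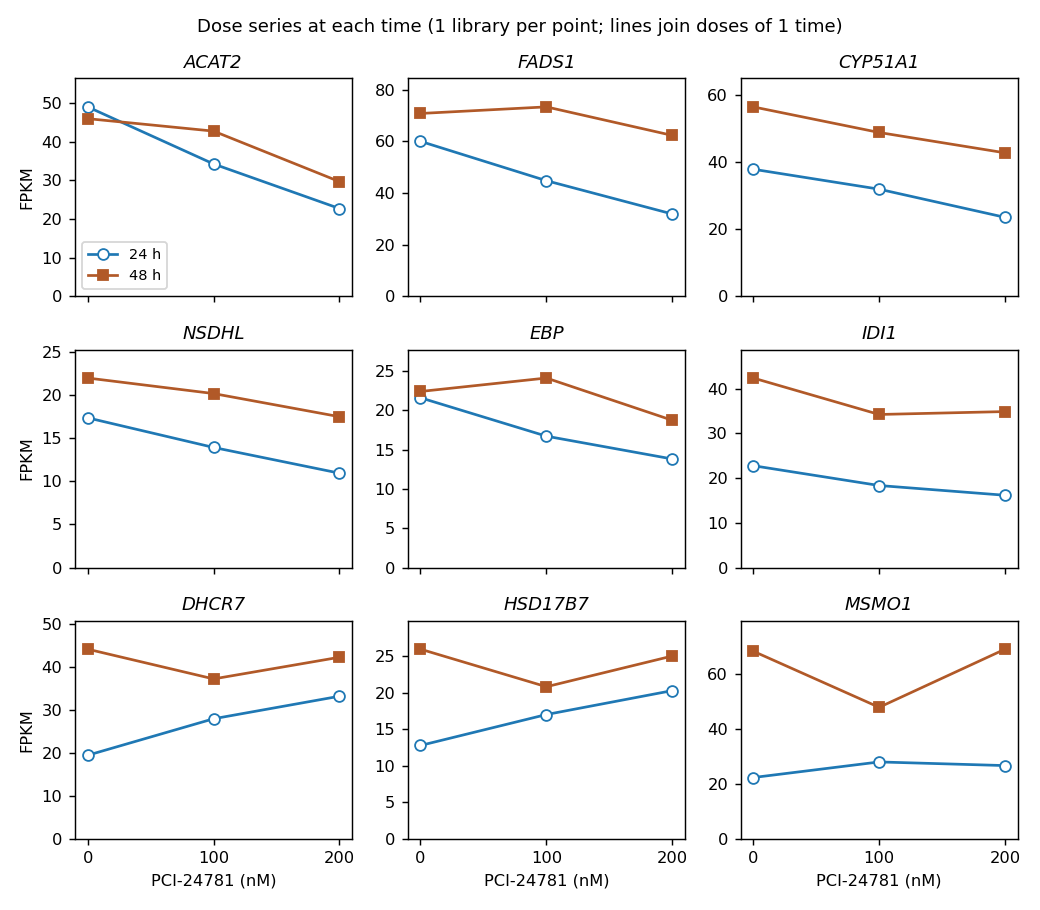
FPKM of 9 members against the dose of PCI-24781 in nM (0 is DMSO), with open circles for 24 h and squares for 48 h, 1 library per point, and the vertical axis from 0 in each panel. ACAT2, CYP51A1 and NSDHL are lower with each dose at 24 h and, as labelled, at 48 h (with DMSO 48 h and 100 nM 48 h exchanged, 100 nM is above DMSO in all 3), DHCR7 and HSD17B7 are higher with each dose at 24 h, and MSMO1 is lowest of its 48 h libraries at 100 nM (47.7 against 68.1 in DMSO and 68.8 at 200 nM).

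Neighbouring lists that hold no member were read for the same comparisons, and their single genes are named because of their values. In DMSO at 48 h against 24 h, the 9 genes that process and degrade SREBPs had a median of 0.05, and 1 of them, INSIG2, passed 1.5-fold (0.88), with an FPKM of 9.37 in DMSO, 11.3 at 100 nM and 12.8 at 200 nM at 24 h, and 18.1, 16.5 and 19.4 at 48 h. INSIG2, a relative of INSIG1, was thus higher at 48 h at every dose, while SCAP, the escort of SREBPs, was at -0.01. Genes of sterol esterification, trafficking and efflux had a median of 0.28 over the 16 of 17 tested, with 13 higher and 3 lower. In this list 4 genes passed 1.5-fold upward in DMSO, 2 at 100 nM and 1 at 200 nM. The shares of all genes were 8.49%, 4.93% and 3.86% in the same order. The 12 genes that use isoprenoids outside the sterol branch had a median of -0.07. PDSS1, a prenyl enzyme of ubiquinone synthesis, was lower past 1.5-fold (-0.82). Other lipogenic genes had a median of 0.16 over 24 of 26, with the elongase ELOVL7 (0.64) past 1.5-fold, and the 22 genes of fatty acid oxidation a median of 0.10, with ETFB (0.72) and PPARGC1A (0.71). At the treated doses the medians of these 5 lists lay between -0.14 and 0.18, beside the members' medians of 0.62 and 0.63.

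Of the comparisons of PCI-24781 with DMSO, that of 200 nM 24 h had the most genes of the neighbouring lists past 1.5-fold. Fatty acid oxidation had a median of 0.20, with 15 of 22 genes higher and 5 past 1.5-fold upward, beside the 12.5% of all genes given above, namely CPT1A, which admits fatty acids to mitochondria (0.71), ACAA1 (0.70), ETFB (0.60), ETFDH (0.96) and PPARGC1A (0.68). Isoprenoid use had a median of -0.24, with RABGGTA, a subunit of a prenyl transferase, past 1.5-fold downward (-0.73). The list of sterol esterification, trafficking and efflux had a median of 0.09, with 3 of 16 genes past 1.5-fold upward and 1 downward, and that of SREBP processing a median of 0.07, with 0 in either direction. ACSL5, a long-chain acyl-CoA synthetase, had an FPKM of 28.1 in DMSO, 20.8 at 100 nM and 12.1 at 200 nM at 24 h, and 31.5, 39.7 and 27.6 at 48 h. It was the 1 other lipogenic gene called lower at 2-fold (-1.15). The acyltransferase gene DGAT2 was the 1 called higher (1.01). At 48 h, as labelled, none of the genes of these 5 lists passed 1.5-fold against DMSO at either dose. With the labels of DMSO 48 h and 100 nM 48 h exchanged, UBXN8 (0.59), NPC2 (0.62) and ELOVL7 (0.65) passed it upward at 200 nM. SLC25A1 (-0.72) and PCYT2 (-0.63) then passed it downward. Of all 11694 genes tested in that exchanged comparison, 652 passed it upward and 277 downward.

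**Figure D4:**
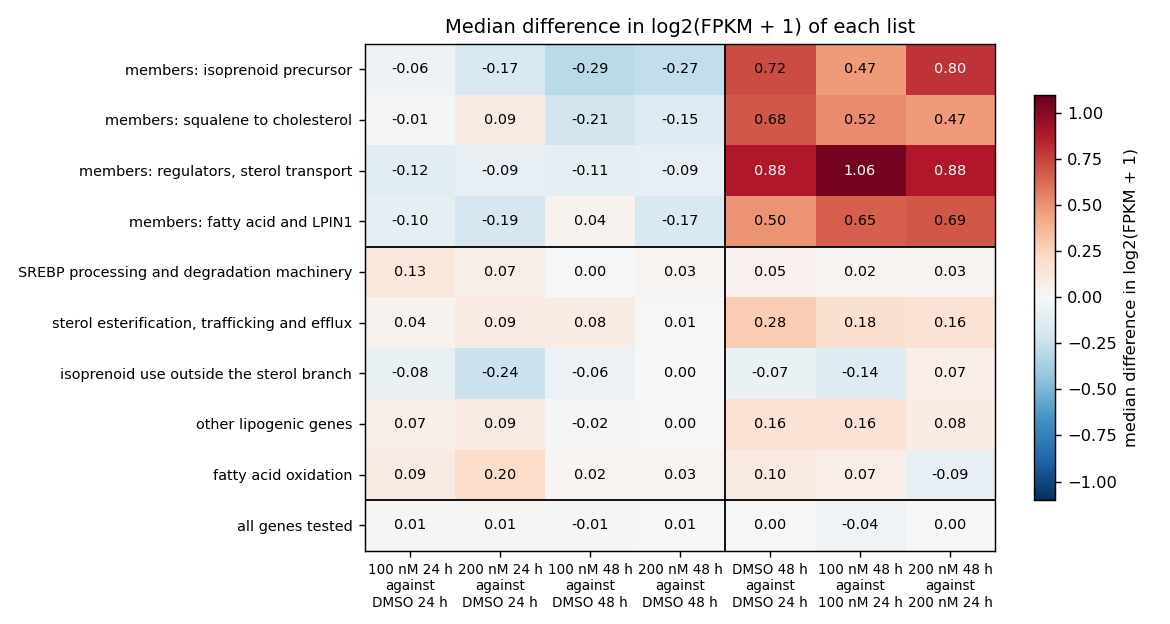
Median difference in log2(FPKM + 1) of the members by role (upper rows), of 5 lists of neighbouring pathways and of all genes tested (lowest row) in 4 comparisons with DMSO and in the comparisons of 48 h with 24 h. Colour and number give the same value, and the members' roles have medians from 0.47 to 1.06 for 48 h against 24 h, while the neighbouring lists have medians from -0.14 to 0.28.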

How the data were processed

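RNA-seq of MDA-MB-231 cells was used from 6 libraries, 1 for each of DMSO, 100 nM and 200 nM PCI-24781 at 24 h and 48 h. The values deposited by the authors are FPKM per gene, rounded to 2 decimals. The submitters' processing notes name Bowtie2, RSEM and the build hg19; versions, gene annotation and the use of strand are not given in the sources used here. FPKM scales by library, so a global difference in RNA per cell is not visible in these values.

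Genes were matched by NCBI Gene ID to the RefSeq table of GRCh38.p14, used for names only (16585 of 16623 matched, 38 not). Differences were taken on log2(FPKM + 1) between single libraries, over genes whose FPKM reached 1 in 1 of them or both, with calls at 2-fold and at 1.5-fold. No significance test of the libraries was run. The calling step was tested on simulated data with known differences larger than the thresholds and with counting error only. That check does not cover variation between cultures or differences near the thresholds. The members named with all 6 values were the 18 with the largest range over the libraries among the 24 that reached 1.5-fold in a comparison with DMSO of the same time or of the DMSO times, and others named were chosen after their values were seen. The members and gene lists were chosen with earlier results of these data known.

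The alternatives tried were a pseudocount of 0.1 or 0.01, leaving out the filter, requiring an FPKM of 1 in both libraries, TPM, median-of-ratios factors, 1.5-fold, and the mean of both DMSO libraries as reference. Depth was inferred from FPKM between 0.04 and 0.35 in genes of 400 to 1400 bases, where few whole fragments give discrete steps. It used transcript lengths of GENCODE release 29, not the authors' own, and is approximate. With 100 bases taken off each length it came to 19900000, 19400000 and 19200000 fragments for DMSO, 100 nM and 200 nM at 24 h and to 19500000, 19900000 and 17300000 at 48 h. Promoters run from 250 bases before to 50 bases after the start. Computations ran in Python 3.11.15 with pandas 2.3.3 and numpy 2.4.6, and figures in matplotlib 3.10.9.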

Additional observations from a re-analysis of the deposited data

Results flagged for a closer look

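In 3 members the difference between 100 nM PCI-24781 and DMSO of the same time had opposite signs at 24 h and 48 h, with at least 0.3 on the log2 scale at each time. For MSMO1 it was 0.31 at 24 h and -0.50 at 48 h. HSD17B7 had 0.39 at 24 h and -0.31 at 48 h. In SC5D the values were 0.36 and -0.57. Each value compares 1 library with 1 library, and the difference between the times was not tested. All 3 of the 48 h values come from the library labelled 100 nM 48 h, whose place among the doses is in doubt for the series as a whole. With the labels of DMSO 48 h and 100 nM 48 h exchanged, these 48 h values are 0.50, 0.31 and 0.57, of the same sign as at 24 h.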

How the results depend on the processing

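The labels give no replicate numbers that pair libraries across doses. Libraries of the same dose pair across time, and the 3 differences of 48 h against 24 h that this gives are printed singly, with no paired test run on them. Against the mean of both DMSO libraries in place of the time-matched one, the members' median was -0.46 at 100 nM and -0.52 at 200 nM at 24 h, and it was 0.18 and 0.17 at 48 h, where its sign was the opposite. Members called lower then numbered 1 at 100 nM 24 h and 3 at 200 nM 24 h. The share of all genes called against that reference is not available, so these counts are not read as a result about the members. That reference lies between the times, so the time difference enters every such value by construction. It moved 68 of 72 differences of single members, 30 of them to the other sign. At 1.5-fold in place of 2-fold, 2 members were called higher and 5 lower at 200 nM 24 h, and 1 was called lower at 200 nM 48 h. For 48 h against 24 h, 19 were called higher in DMSO, 17 at 100 nM and 16 at 200 nM, more by construction of the lower threshold.

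With the labels of DMSO 48 h and 100 nM 48 h exchanged, the median at 100 nM 48 h was 0.10, the opposite sign by construction, the median of 48 h against 24 h in DMSO was 0.57, and 4 members went upward with dose at 48 h. At 1.5-fold, 200 nM 48 h against DMSO then had 1 member higher and 0 lower, beside 652 and 277 of the 11694 genes tested. The medians of the isoprenoid precursor genes moved more than those of all members.

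Under the pseudocounts of 0.1 and 0.01, no filter, the stricter filter, TPM and median-of-ratios factors, no median of a comparison moved by more than 0.1 and no count of calls by more than 1.5 times. Of 90 differences of single members, the pseudocount of 0.1 moved 1 and that of 0.01 moved 2, and TPM turned the sign of 1 that was under 0.1. The count of members with every 48 h library above every 24 h library was 22 under TPM, 21 under median-of-ratios factors and between 22 and 25 without each library in turn. The alternatives for this count, the exchange of labels, and those for the treated libraries at 48 h against 24 h and for 200 nM against 100 nM, were chosen after seeing the data. The depth limits single differences of HSD17B7 most, and variation between cultures was not measured.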

Other observations

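At 24 h the 31 members had a summed FPKM of 967 (DMSO), 888 (100 nM) and 831 (200 nM), and 1663, 1559 and 1460.1 at 48 h. The sums are led by abundant genes. The isoprenoid precursor genes summed to 257, 226 and 190.2 at 24 h and 386, 313 and 314 at 48 h. Genes from squalene to cholesterol summed to 234, 235 and 238 at 24 h, nearly level over the doses, and to 411, 358 and 365 at 48 h. The fatty acid genes had sums of 400.4, 356 and 329.8 at 24 h and 696, 727 and 626 at 48 h.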
